A study of Homo sapiens with 9 samples.

Results

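Expression was examined for 8 human genes known for their part in the colonization of the lung by MDA-MB-231 breast cancer cells: *TNC*, *PTGS2*, *VCAM1*, *SPARC*, *LTBP1*, *IL13RA2*, *ANGPTL4* and *NEDD9*. They were chosen by name for their known part in lung metastasis, by a rule that uses no measured value but with earlier results of these data known, and are 8 of the 60664 genes in the count tables. RNA was sequenced from MDA-MB-231 cells, an established triple-negative human breast cancer line, in 3 groups of 3 samples. The study asked whether the viscosity of the fluid around tumour cells, and the calcium channel TRPV4, change what these cells express. Cells with a scramble control hairpin (SC) were held at 0.77 cP, the viscosity of plain medium, or at 8 cP, and the third group was cells with a short hairpin RNA against *TRPV4* (shTRPV4) at 8 cP. All groups carried a lentiviral hairpin, either the non-targeting scramble or the one against *TRPV4*, and all samples were taken on day 6 in medium whose viscosity was raised, where needed, with methylcellulose. The labels give the SC cells the genotype WT with scramble RNA as their treatment, and the shTRPV4 cells the genotype TRPV4 knockdown, from 1 hairpin sequence. Neither the labels nor the methods say that the shTRPV4 cells were a clone. There was no shTRPV4 group at 0.77 cP among the samples analysed here, so whether the knockdown changes the response to viscosity was not tested.

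To form a metastasis in the lung, circulating tumour cells have to leave the capillaries, survive in a foreign tissue and rebuild a supporting matrix. The 8 genes act at different steps of this. *TNC* (tenascin C) and *SPARC* encode matrix proteins that act on adhesion and survival, and *LTBP1* encodes the protein that anchors latent TGF-β in the matrix. *ANGPTL4* encodes a secreted inhibitor of lipoprotein lipase that also loosens endothelial junctions. *VCAM1* encodes an adhesion molecule of the cell surface that binds integrins of leukocytes, and *IL13RA2* a decoy receptor for interleukin 13. *PTGS2* encodes the inducible cyclooxygenase of prostaglandin synthesis, and *NEDD9* a docking protein that links focal adhesions to SRC-family and FAK signalling.

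The promoters of the 3 members that were called lower in SC cells at 8 cP than at 0.77 cP are shown, chosen by that call alone. With the knockdown *VCAM1* was higher in mean, while *PTGS2* and *NEDD9* were lower. RefSeq windows on GRCh38.p14, from 250 bases before to 50 bases from each start, were matched for 7 of the 8 members (11 windows), and *IL13RA2* was not matched. The letters given are the 250 bases before the start, 5′ to 3′ on the strand of the gene, with matches to the motifs searched in capitals. They lie at chr1:100719492-100719741 (plus strand) for *VCAM1*, chr1:186680424-186680673 (minus strand) for *PTGS2* and chr6:11232669-11232918 (minus strand) for the first of 3 windows of *NEDD9*.
VCAM1: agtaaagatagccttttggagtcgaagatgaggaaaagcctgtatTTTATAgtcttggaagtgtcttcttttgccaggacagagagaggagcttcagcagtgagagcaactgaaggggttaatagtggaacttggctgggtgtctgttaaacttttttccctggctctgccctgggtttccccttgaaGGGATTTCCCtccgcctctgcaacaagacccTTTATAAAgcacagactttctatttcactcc
PTGS2: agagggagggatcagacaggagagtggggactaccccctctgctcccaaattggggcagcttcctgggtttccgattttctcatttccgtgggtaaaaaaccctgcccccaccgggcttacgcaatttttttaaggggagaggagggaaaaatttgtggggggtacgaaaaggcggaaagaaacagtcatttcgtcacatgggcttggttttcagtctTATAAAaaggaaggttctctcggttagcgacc
NEDD9: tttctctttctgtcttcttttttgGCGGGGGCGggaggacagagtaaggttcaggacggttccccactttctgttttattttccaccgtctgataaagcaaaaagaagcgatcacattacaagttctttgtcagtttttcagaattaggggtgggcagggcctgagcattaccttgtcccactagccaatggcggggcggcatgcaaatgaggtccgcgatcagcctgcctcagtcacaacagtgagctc

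Both strands of the 300-base windows were searched for 8 motifs. *VCAM1* held 3 matches to TATAAA, 2 of which overlap at -31 and -29 from the start, and 1 match to the NF-kappaB motif at -62. *PTGS2* held 1 TATAAA at -32, and the *NEDD9* window held 1 match to the EGR motif GCGNGGGCG at -226. TATAAA was found in 11.5% of 35116 windows of this length, the NF-kappaB motif in 11.3% and the EGR motif in 9.43%. Among the other members, *ANGPTL4* held TATAAA and the EGR motif, *SPARC* held the TEAD motif GGAATG (14% of windows), and the first of 3 windows of *LTBP1* held the CRE motif TGACGTCA (1.85% of windows) and 2 matches to the NF-kappaB motif. The other windows of *LTBP1* and *NEDD9* held none. The *TNC* window held none of the 8, which also included the AP-1 motif TGANTCA (7.71%), the NBRE motif AAAGGTCA (1.22%) and the CArG box (1.29%). No motif was common to the 3 members that were lower at 8 cP.

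Library totals ran from 64571681 to 103518036 counts, so that 1 CPM (counts relative to 1000000 counts of the scaled library) stood for 64.1 to 103 counts. *TRPV4* itself had 40, 28 and 54 counts in SC cells at 0.77 cP, 64, 45 and 24 in SC cells at 8 cP, and 7, 1 and 13 in shTRPV4 cells. Against SC cells at 8 cP this was -2.53 (SE 0.5) on the log2 scale, with an adjusted p of 0.00219 in edgeR's quasi-likelihood test. The channel was thus lower in all 3 shTRPV4 samples than in any SC sample, at a low level throughout. The 5 genes typical of this line (*VIM*, *CD44*, *AXL*, *CAV1*, *MSN*) summed to 4650 to 4980 CPM in the 9 samples, and 5 genes of luminal cells (*ESR1*, *PGR*, *EPCAM*, *CDH1*, *GATA3*) to 30.5 to 35.4 CPM, nearly all of it *EPCAM* and *GATA3*. Of the first list *AXL* rose and *VIM* fell with viscosity (log2 0.225 and -0.172), and *MSN* rose and *VIM* and *AXL* fell with the knockdown (0.27, -0.282 and -0.31), while *GATA3* rose with the knockdown (0.303). Of 7 fibroblast and endothelial markers, *CDH5* had 1 count and *DCN* 4 counts in all 9 samples, and the list summed to 16.5 to 20.0 CPM in SC cells at 0.77 cP, 12.3 to 13.3 at 8 cP and 12.8 to 13.9 in shTRPV4 cells. Within it *LUM* rose with the knockdown, from 0.69 to 1.47 CPM (log2 1.09, adjusted p = 0.000917).

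The shTRPV4 replicate 1 stood apart from the other two of its group. The median absolute log2 difference over 9453 genes was 0.081 and 0.0991 from it to replicates 2 and 3, against 0.0513 between those 2 and 0.0503 to 0.0828 among the SC pairs of a group. In that sample *TNC*, *LTBP1* and *ANGPTL4* were the highest of their group and *VCAM1*, *SPARC* and *NEDD9* the lowest, while *PTGS2* had its middle value there, so values without it are given where they change a call. The labels do not say that replicates were separate cultures, and p-values then measure only the spread between these samples. With 3 samples against 3, an exact permutation test of 1 gene cannot give a two-sided p below 0.1, and calls rest on the model across all genes.

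Of the 8 members, 7 passed the filter on low counts. Adjusted for exon length, *LTBP1* was the most abundant in SC cells at 0.77 cP, with 7.75 CPM per kb of exon (range 7.50 to 8.11), followed by *NEDD9* with 6.55 (5.74 to 6.96), *TNC* with 6.05 (5.90 to 6.24) and *ANGPTL4* with 3.14 (3.05 to 3.19). *VCAM1* had 1.40 CPM per kb (1.13 to 1.66), *PTGS2* 0.518 (0.395 to 0.586) and *SPARC* 0.297 (0.266 to 0.352). The samples of *NEDD9* and *TNC* overlapped, while every other pair of neighbours in this order did not. In SC cells at 8 cP and in shTRPV4 cells *TNC* had a higher mean than *NEDD9*, and in shTRPV4 cells *SPARC* a higher mean than *PTGS2*. The rest of the order was that of SC cells at 0.77 cP. Among all genes tested these levels were at the percentiles 71.4 for *LTBP1*, 68.2 for *NEDD9*, 66.8 for *TNC*, 54.7 for *ANGPTL4*, 42.6 for *VCAM1*, 30.4 for *PTGS2* and 23.8 for *SPARC*. The 2 matrix genes thus lay far apart, and *SPARC* was among the scarcer genes of these cells. With the longest transcript as the length in place of all exons, *NEDD9* came first, at 13.7 CPM per kb, because most of its exon length lies outside that transcript.

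*IL13RA2* (ENSG00000123496, chrX:115003975-115019977, minus strand) was not detected. It had 0 counts in 8 samples and 1 count in shTRPV4 replicate 2, which is below the 3 counts, or 0.0292 to 0.0468 CPM, that a count of 0 allows. This floor covers counting error only, since the libraries held no molecular identifiers. The receptors that transmit the signal of the same cytokine were present, with *IL13RA1* at 92.3 to 107 CPM and *IL4R* at 47.8 to 54.7 CPM over the 9 samples, while no fold change could be given for the decoy receptor.

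**Figure D1:**
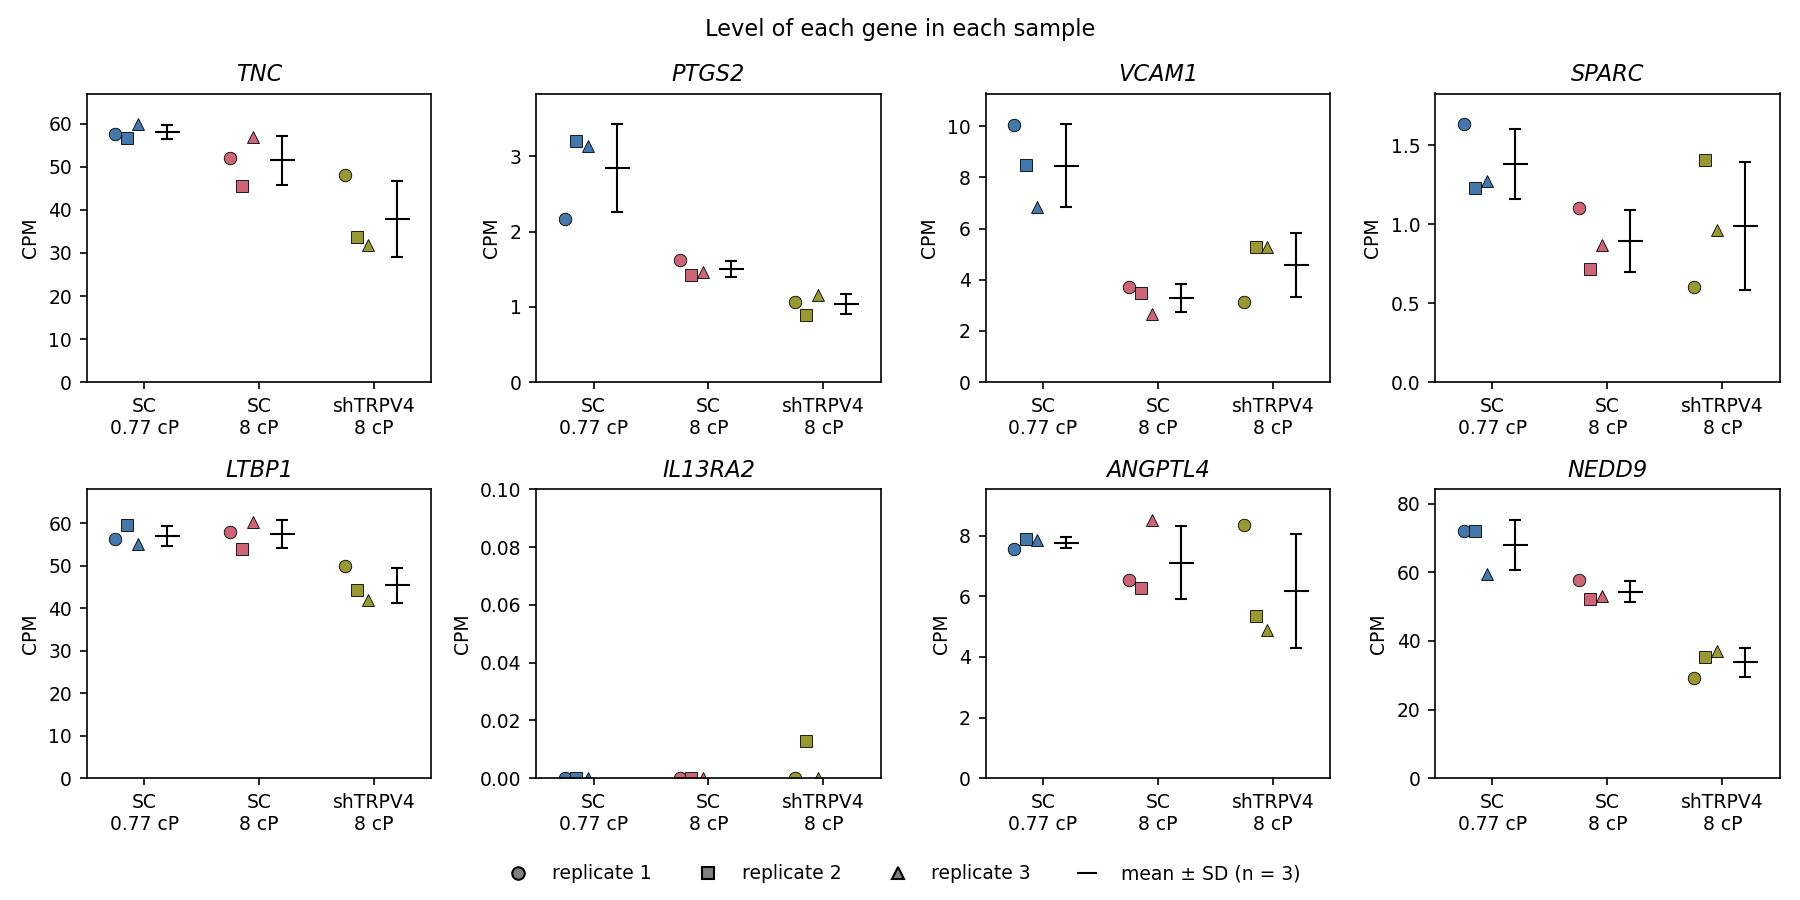
Level of each of the 8 genes in each sample, in CPM (vertical axis, linear from 0, a separate scale in each panel) for the 3 groups (horizontal axis), with symbols for the replicates and the mean ± SD (n = 3) beside them. PTGS2 and NEDD9 step down from SC at 0.77 cP to SC at 8 cP to shTRPV4, VCAM1 drops from a mean of 8.46 to 3.29 CPM at 8 cP, and IL13RA2 is at 0 except for 1 count, for which no mean is drawn.

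In SC cells, elevated viscosity went with lower *VCAM1*, *PTGS2* and *NEDD9*, and none of the 7 genes tested was called higher. *VCAM1* fell the most, 2.57-fold, *PTGS2* fell 1.89-fold and *NEDD9* 1.25-fold. *TNC*, *SPARC*, *LTBP1* and *ANGPTL4* did not pass the test. So 3 of 7 members tested were called, all lower, where 19.3% of all 18264 genes tested were called in this comparison and 9.69% were called lower. The median log2 fold change was -0.32 over the 7 members and -0.00647 over all genes tested. As RNA was measured in bulk, fewer cells that express a gene and less RNA in each cell cannot be told apart.

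*VCAM1* (ENSG00000162692, chr1:100719742-100739045, plus strand) had 10.05, 8.50 and 6.84 CPM in SC cells at 0.77 cP and 3.71, 3.47 and 2.68 CPM at 8 cP. The lowest sample at 0.77 cP was well above the highest at 8 cP. The log2 fold change was -1.36 (SE 0.18, 95% interval -1.75 to -0.971, adjusted p = 0.000244 in edgeR), and it stayed between -1.49 and -1.21 with any 1 of the 9 samples left out, each time with an adjusted p under the threshold. *VCAM1* is also a gene of activated endothelium, and the endothelial marker *PECAM1* moved the same way, from 5.04 to 2.75 CPM (log2 -0.864, adjusted p = 0.00159), as did *PDGFRB* (-0.513, 0.00553) and *COL1A1* (-0.35, 0.0117), so that 3 of 5 fibroblast and endothelial markers tested were lower and none higher. The defining endothelial gene *CDH5* had at most 1 count in a sample, and the part of other cell types in the value of *VCAM1* was not tested.

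*PTGS2* (ENSG00000073756, chr1:186671791-186680922, minus strand) had 2.16, 3.21 and 3.14 CPM at 0.77 cP and 1.62, 1.42 and 1.47 CPM at 8 cP, from 133 to 323 counts a sample. All samples at 8 cP lay below all samples at 0.77 cP. Its log2 fold change was -0.915 (SE 0.16, interval -1.26 to -0.569, adjusted p = 0.00202 in edgeR), and its call also held in every fit that left out a sample. The exons of *PTGS2* share 219 bases with *PACERR* on the other strand, and whether the counting used the strand is not given in the sources used here.

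*NEDD9* (ENSG00000111859, chr6:11183298-11382348, minus strand) had 72.1, 71.9 and 59.4 CPM at 0.77 cP and 57.9, 52.1 and 52.9 CPM at 8 cP. The groups did not overlap, but the gap between the nearest samples was small. The fold change was -0.32 on the log2 scale (SE 0.085, interval -0.501 to -0.139, adjusted p = 0.017 in edgeR). The call was lost without SC replicate 1 or 2 at 0.77 cP and without SC replicate 2 or 3 at 8 cP, with log2 fold changes of -0.266, -0.268, -0.28 and -0.293 and adjusted p-values of 0.106, 0.0861, 0.0666 and 0.0765, whereas the direction held in all 9 such fits.

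*SPARC* (ENSG00000113140, chr5:151661096-151686975, minus strand) had 1.63, 1.23 and 1.27 CPM at 0.77 cP and 1.1, 0.714 and 0.870 CPM at 8 cP, from 69 to 154 counts a sample. The groups did not overlap, yet the log2 fold change of -0.627 (interval -1.17 to -0.0845) had an adjusted p of 0.0981 in edgeR. It passed the threshold in the fit of the 6 samples compared alone, where no shTRPV4 sample enters the spread (-0.631, adjusted p = 0.0361). *SPARC* also passed without shTRPV4 replicate 1, which is in neither group but enters the shared spread (-0.626, 0.0365), and without a filter (-0.626, 0.019). It did not pass in the other alternatives, and its adjusted p ranged from 0.019 to 0.34 over all of them. For *TNC* (ENSG00000041982, chr9:115019575-115118207, minus strand) the samples at 8 cP, with 52.0, 45.5 and 56.9 CPM, overlapped those at 0.77 cP, with 57.7, 56.6 and 59.9 CPM (log2 -0.175, interval -0.419 to 0.0701, adjusted p = 0.314).

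*LTBP1* (ENSG00000049323, chr2:32946953-33399509, plus strand) was at 56.2, 59.6 and 55.1 CPM at 0.77 cP and 58.1, 54.1 and 60.4 CPM at 8 cP. Its log2 fold change of 0.0143 had the narrowest interval of the members in this comparison, -0.119 to 0.148, with an adjusted p of 0.902. *ANGPTL4* (ENSG00000167772, chr19:8363289-8374370, plus strand) was at 7.55, 7.89 and 7.87 CPM at 0.77 cP and at 6.54, 6.28 and 8.50 CPM at 8 cP, where the samples spread to both sides of those at 0.77 cP (log2 -0.129, interval -0.465 to 0.208, adjusted p = 0.614). The intervals of *TNC*, *LTBP1* and *ANGPTL4* thus hold no rise above 0.208 on the log2 scale.

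**Figure D2:**
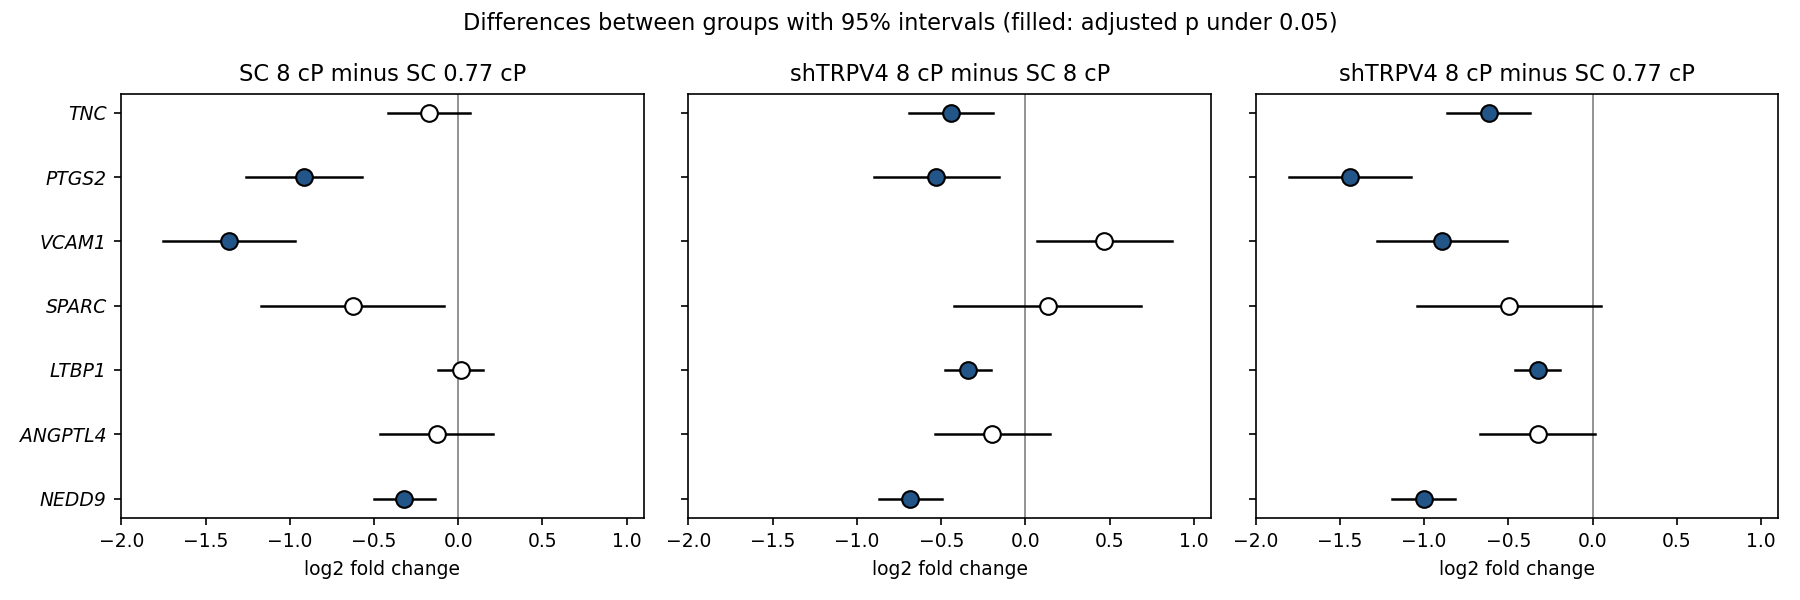
Log2 fold change (horizontal axis) of the 7 genes tested in the 3 comparisons, as points with their 95% intervals, filled where the adjusted p of edgeR is under 0.05. All 12 filled points lie below 0, and VCAM1 lies at -1.36 for viscosity and at 0.469, not called, for the knockdown.

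At 8 cP, knockdown of *TRPV4* went with lower *NEDD9*, *LTBP1*, *TNC* and *PTGS2*. *NEDD9* fell 1.61-fold, *PTGS2* 1.44-fold, *TNC* 1.36-fold and *LTBP1* 1.27-fold. *VCAM1* was 1.38-fold higher in mean but did not pass the test, and neither did *SPARC* and *ANGPTL4*. Thus 4 of 7 members tested were called, all lower, where 20.0% of all genes tested were called and 11.0% were called lower. The median log2 fold change was -0.341 over the members and 0.000645 over all genes. This comparison and the one of viscosity share the 3 SC samples at 8 cP, so a chance deviation in those samples enters both, with opposite signs.

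*NEDD9* had 29.1, 35.3 and 37.2 CPM in shTRPV4 cells, below all 3 SC samples at 8 cP (52.1 to 57.9 CPM). On the log2 scale the difference was -0.683 (SE 0.087, interval -0.867 to -0.498, adjusted p = 6.18e-05 in edgeR). With any sample left out it remained between -0.756 and -0.584 and past the threshold. *NEDD9* shares only 53 exon bases with another gene, *ENSG00000247925* on the other strand.

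*LTBP1* had 49.9, 44.3 and 42.0 CPM in shTRPV4 cells against 54.1 to 60.4 CPM in SC cells at 8 cP, without overlap. The log2 fold change of -0.341 (SE 0.063, interval -0.475 to -0.207, adjusted p = 0.00137 in edgeR) held its call in all fits that left out a sample. Its exons share 249 bases with *ENSG00000285577* on the other strand. For *TNC*, shTRPV4 replicate 1 had 48.1 CPM, within the range of the SC samples at 8 cP, while replicates 2 and 3 had 33.6 and 31.9 CPM, below all of them. The log2 fold change of *TNC* was -0.442 (SE 0.12, interval -0.689 to -0.195, adjusted p = 0.0144 in edgeR) and -0.654 without shTRPV4 replicate 1. The *TNC* call was lost without SC replicate 3 at 8 cP (-0.364, adjusted p = 0.053), without shTRPV4 replicate 2 (-0.364, 0.0719) or replicate 3 (-0.331, 0.0575), and in DESeq2 (-0.442, 0.0577). Its adjusted p ranged from 1.08e-05 to 0.0719 with a sample left out, and from 2.83e-12 to 0.0577 over the other alternatives.

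*PTGS2* had 1.06, 0.894 and 1.16 CPM in shTRPV4 cells, from 70 to 105 counts, below the lowest SC sample at 8 cP (1.42 CPM). Although the groups did not overlap, the log2 fold change of -0.528 (SE 0.18, interval -0.9 to -0.155) was near the threshold, with an adjusted p of 0.0448 in edgeR. The call was lost without any 1 of SC replicates 1, 2 and 3 at 8 cP (-0.47, -0.571 and -0.545, adjusted p = 0.142, 0.0766 and 0.0744) and without shTRPV4 replicate 1 or 2 (-0.541 and -0.436, adjusted p = 0.0779 and 0.154). The adjusted p ranged from 0.021 to 0.154 over all alternatives, and the direction held in all of them.

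*VCAM1* had 3.12, 5.29 and 5.29 CPM in shTRPV4 cells, with replicate 1 inside and replicates 2 and 3 above the range of SC cells at 8 cP (2.68 to 3.71 CPM). The log2 fold change was 0.469 (interval 0.0695 to 0.869, adjusted p = 0.0938 in edgeR). Without shTRPV4 replicate 1 it was 0.684 with an adjusted p of 0.00472, a call in the direction opposite to that of the other members called, and over all alternatives the adjusted p ranged from 0.000369 to 0.291. *ANGPTL4* behaved in the reverse way, with 8.34 CPM in replicate 1, among the SC samples, and 5.34 and 4.88 CPM in replicates 2 and 3, below them. Its log2 fold change was -0.197 (interval -0.537 to 0.143, adjusted p = 0.435), and -0.478 with an adjusted p of 0.0102 without replicate 1, where the adjusted p over all alternatives went from 0.0102 to 0.875.

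*SPARC* had 0.600, 1.41 and 0.962 CPM in shTRPV4 cells, and its samples lay on both sides of those of SC cells at 8 cP. The log2 fold change of 0.131 (interval -0.426 to 0.688, adjusted p = 0.779) did not fix a direction. *SPARC* shares 191 exon bases with *CLMAT3* and *TNC* 129 with *DELEC1*, both on the other strand.

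**Figure D3:**
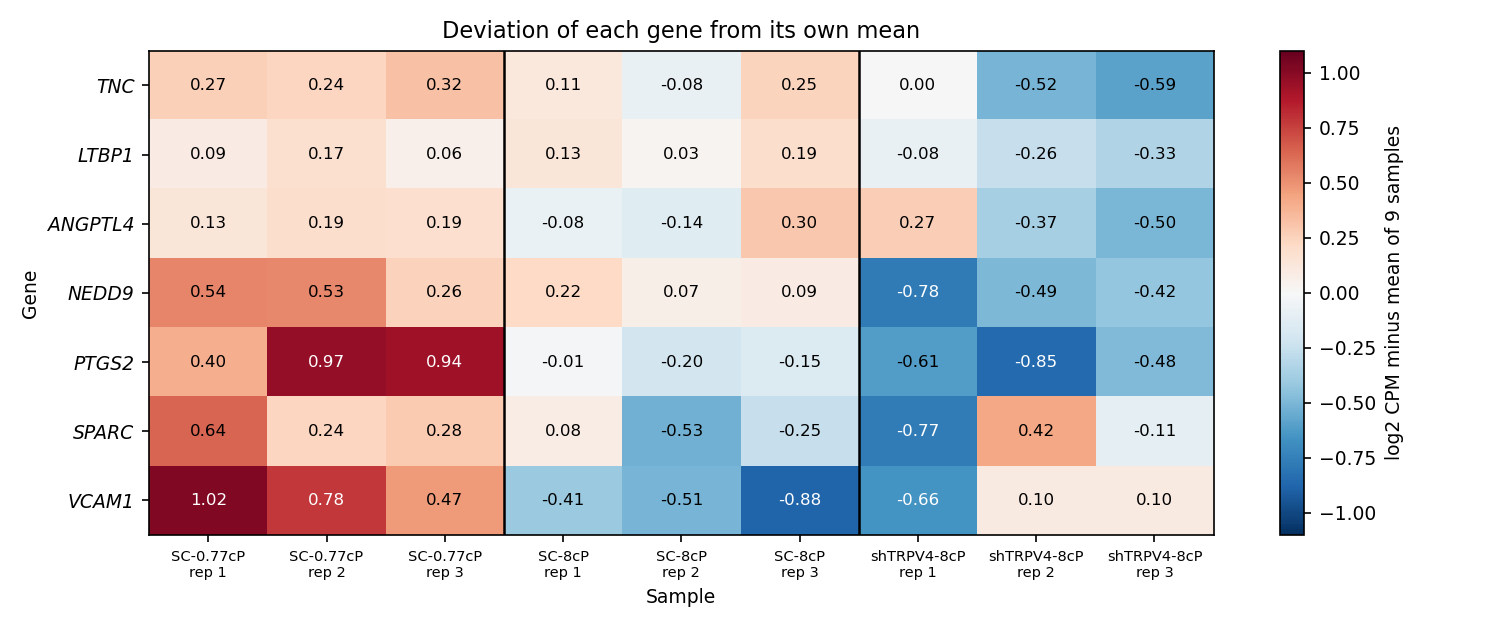
Log2 CPM of each gene in each sample minus the mean of the gene over the 9 samples (colour scale and printed values), with lines between the groups. TNC, LTBP1 and ANGPTL4 are nearer to 0 or above it in shTRPV4 replicate 1 (0.00, -0.08 and 0.27) than in replicates 2 and 3, while VCAM1, SPARC and NEDD9 have their lowest shTRPV4 value there (-0.66, -0.77 and -0.78).

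Set against SC cells at 0.77 cP, from which they differ in both the hairpin and the viscosity, shTRPV4 cells had 5 of 7 members lower: *PTGS2* 2.72-fold, *NEDD9* 2.0-fold, *VCAM1* 1.86-fold, *TNC* 1.53-fold and *LTBP1* 1.25-fold. In this comparison 42.4% of all genes tested were called and 22.0% were called lower, and the median log2 fold change was -0.616 for the members and -0.0108 for all genes. The log2 fold changes in edgeR were -1.44 for *PTGS2* (adjusted p = 8.56e-06), -1.0 for *NEDD9* (4.16e-07), -0.892 for *VCAM1* (0.000922), -0.616 for *TNC* (0.000538) and -0.327 for *LTBP1* (0.000649). For all 5, the samples of the 2 groups did not overlap, and the call held in all 15 alternatives. *PTGS2* and *NEDD9* were the members called in each of the 3 comparisons, with their level lower at each step from 0.77 cP (2.84 ± 0.585 and 67.8 ± 7.27 CPM as mean ± SD, n = 3) to 8 cP in SC cells (1.5 ± 0.104 and 54.3 ± 3.10) to shTRPV4 cells (1.04 ± 0.135 and 33.8 ± 4.24). *ANGPTL4* (log2 -0.326, adjusted p = 0.118) was called without shTRPV4 replicate 1 (-0.605, 0.000687) and *SPARC* (-0.496, 0.135) without shTRPV4 replicate 2 (-0.825, 0.0194). The adjusted p ranged from 0.000687 to 0.409 for *ANGPTL4* and from 0.0194 to 0.464 for *SPARC* over all alternatives.

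**Figure D4:**
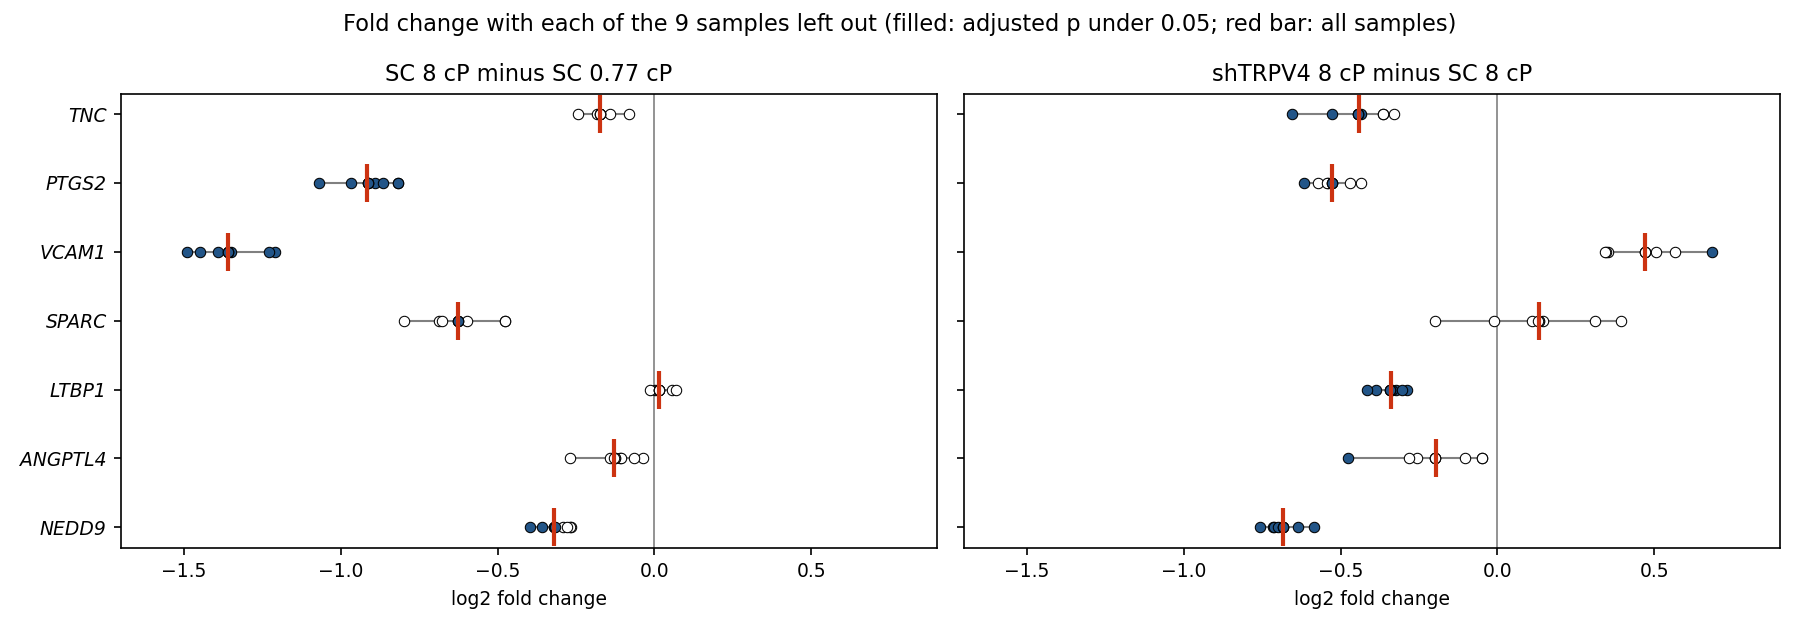
Log2 fold change (horizontal axis) of the 7 genes tested with each of the 9 samples left out in turn (points, filled where the adjusted p is under 0.05), beside the value of all samples (red bar), for viscosity (left) and knockdown (right). PTGS2 and VCAM1 on the left and LTBP1 and NEDD9 on the right are filled throughout, while SPARC on the right lies on both sides of 0, from -0.2 to 0.394.

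Genes that work with each member were taken from 8 lists of known partners, 87 genes in all, of which 63 were tested. With viscosity 6 were higher and 11 lower, and with the knockdown 6 were higher and 14 lower, with medians of -0.0417 and -0.056 on the log2 scale. Over all genes tested, 19.3% and 20.0% were called in the 2 comparisons, 9.69% and 11.0% were called lower, and the medians were -0.00647 and 0.000645. Genes of the opposite strand overlap the exons of some genes named here, in bases: *ICAM1* 876, *THBS1* 694, *ITGB1* 401, *CCN2* 278, *TGFB1* 215, *LTBP2* 207, *ITGAV* 203, *BCAR3* 129 and *STAT6* 128.

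Among 12 prostaglandin genes tested beside *PTGS2*, the constitutive cyclooxygenase gene *PTGS1* showed the largest fall with the knockdown. It had 3.99, 3.44 and 2.88 CPM in SC cells at 8 cP and 1.2, 1.07 and 0.885 CPM in shTRPV4 cells (log2 -1.71, SE 0.15, adjusted p = 1.65e-06 in edgeR), without overlap, and 3.81 to 4.44 CPM in SC cells at 0.77 cP. *PTGES*, the prostaglandin E synthase gene, went from 105 to 79.9 CPM in mean (log2 -0.392, adjusted p = 0.0417), the receptor gene *PTGER4* from 11.5 to 9.42 CPM (-0.285, 0.0325) and the thromboxane synthase gene *TBXAS1* from 12.7 to 10.6 CPM (-0.264, 0.0135). In all, 4 of the 12 were lower and none higher in shTRPV4 cells (median -0.274). With viscosity 2 were higher and 2 lower (median -0.105). The uptake transporter *SLCO2A1* fell from 0.443 to 0.128 CPM in mean (log2 -1.76, adjusted p = 0.00835), from 30 to 45 counts a sample to 8 to 16, and *PTGER4* fell too (-0.288, 0.03). The exporter *ABCC4* rose from 38.0 to 44.7 CPM (0.235, 0.00454).

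The integrin subunit gene *ITGB1*, a partner of both tenascin C and VCAM1, was lower by more than 2-fold in shTRPV4 cells. It had 1905, 2029 and 1857 CPM in SC cells at 0.77 cP, 1918, 1946 and 1917 CPM in SC cells at 8 cP and 894, 943 and 935 CPM in shTRPV4 cells (knockdown log2 -1.06, SE 0.046, adjusted p = 2.6e-09 in edgeR). The 6 SC samples lay close together and all shTRPV4 samples far below them. *ITGAV*, another receptor subunit for tenascin C, rose from 99.9 to 114 CPM with viscosity (0.196, adjusted p = 0.0159) and to 139 CPM with the knockdown (0.279, 0.00137). Of 7 *TNC* partners tested, 1 was higher and 2 lower with viscosity and 1 was higher and 1 lower with the knockdown, with medians of -0.0468 and -0.0985. The tenascin gene *TNXB* fell from 9.64 to 5.74 CPM (-0.741, 0.000962), though its exons share 102 bases with other genes on its own strand and 298 on the other, and the syndecan gene *SDC4* fell from 133 to 112 CPM (-0.246, 0.00572) with viscosity.

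Of the receptors that bind VCAM1, *ITGA4* had at most 0.0128 CPM and *ITGB7* at most 0.141 CPM in a sample, and neither was tested. Among the 5 *VCAM1* partners tested, the adhesion molecule gene *ICAM1* was lower at 8 cP, as *VCAM1* was, with 27.0, 29.6 and 18.3 CPM at 0.77 cP and 18.2, 18.8 and 14.1 CPM at 8 cP (-0.548, adjusted p = 0.025). Replicate 3 at 0.77 cP lay within the range at 8 cP, so these groups overlapped, unlike those of *VCAM1*. The knockdown went with lower *ITGB1* and with higher *MSN*, the gene of the cortical linker moesin, from 636 to 767 CPM (0.27, 0.00039). The medians of the list were -0.0712 with viscosity and 0.0788 with the knockdown.

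Around *LTBP1*, several genes of latent TGF-β were lower at 8 cP while *LTBP1* was not called. *LTBP4* fell from 111 to 88.5 CPM (-0.331, adjusted p = 0.00184), *TGFB1*, which encodes the cytokine that LTBP1 binds, from 109 to 88.4 CPM (-0.305, 0.00328), and *LTBP2* from 27.7 to 22.5 CPM (-0.3, 0.00895). Of 11 partners tested, 1 was higher and 4 lower (median -0.155). With the knockdown 2 were higher and 3 lower (median -0.0636). *TGFB1* fell further, to 74.7 CPM (-0.244, 0.00915), and *THBS1*, the gene of the latent TGF-β activator thrombospondin, rose from 1000 to 1230 CPM (0.297, 0.00191) together with *ITGAV*. The level of *TGFB1* stepped down over the 3 groups without overlap, from 102 to 115 CPM through 81.3 to 95.5 CPM to 72.1 to 77.3 CPM.

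For *ANGPTL4*, 10 partners in lipid metabolism were tested. *LPL*, the gene of the lipoprotein lipase that the ANGPTL4 protein inhibits, was scarce and lower with the knockdown, from 0.768, 0.932 and 1.09 CPM to 0.360, 0.268 and 0.221 CPM (-1.71, adjusted p = 0.000283), that is 20 to 33 counts a sample in shTRPV4 cells. *RXRA*, the partner of the PPAR receptors that induce *ANGPTL4*, fell from 119 to 99.0 CPM (-0.268, 0.0005, with 62 exon bases shared with *MIR4669* on its own strand) and *PDK4*, another PPAR target, from 2.63 to 1.83 CPM (-0.524, 0.0149). In total 1 was higher and 4 lower with the knockdown (median 0.0122). With viscosity only *CPT1A*, for the import of fatty acids into mitochondria, was called, from 32.5 to 44.3 CPM (0.446, 0.00339; median of the list 0.0135).

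For *NEDD9*, 11 signalling partners were tested. With the knockdown the SRC-family kinase genes *FYN* (38.2 to 48.1 CPM, 0.334, adjusted p = 0.000411) and *SRC* (60.7 to 70.9 CPM, 0.223, 0.00441) rose while *BCAR3*, an adaptor that binds NEDD9, fell (151 to 127 CPM, -0.252, 0.000557), and the other 8 were not called (median 0.00411). With viscosity the focal adhesion kinase relative *PTK2B* fell (10.8 to 8.20 CPM, -0.398, 0.0196) and the adaptor *CRK* rose (145 to 160 CPM, 0.136, 0.0314), with a median of 0.000666. Neither *PTK2*, the gene of FAK, nor the paralogue *BCAR1* was called in either comparison.

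Of the matricellular relatives of *SPARC*, 4 were tested. *FSTL1* rose with viscosity from 368 to 416 CPM (0.176, adjusted p = 0.0162, list median -0.0507), and 62 of its exon bases are shared with *MIR198* on the same strand. With the knockdown *SPOCK3* fell from 1.66 to 0.477 CPM (-1.81, 3.99e-06, list median -0.238). Among 5 genes of interleukin 13 and 4 signalling tested, *STAT6* was lower at 8 cP, 136 against 152 CPM (-0.159, 0.0152, list median -0.0531), and none was called with the knockdown (median -0.0392).

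Other genes linked to metastasis of this line to lung, bone and brain give a setting for the members. Of 12 further lung metastasis genes, all tested, 7 were lower and none higher with viscosity, 6 were lower and none higher with the knockdown, and 10 were lower and none higher between shTRPV4 cells and SC cells at 0.77 cP (medians -0.233, -0.424 and -0.691). Over all genes tested 9.69%, 11.0% and 22.0% were called lower in these comparisons. As among the members, none was called higher in a comparison. *MMP1* was higher in mean at 8 cP without overlap, from 6.72 to 10.6 CPM, but was not called (log2 0.658, adjusted p = 0.0642 in edgeR). With the knockdown *MMP1* was called lower, at 4.3 CPM (-1.29, 0.0017). *MMP2*, with 5 to 26 counts a sample, had the same signs but no call (0.665 and -0.992). The list includes *PLAAT4* and *LY6E*, known as genes of low level in lung-colonizing cells, which were also lower with viscosity (-0.566 and -0.262, adjusted p = 0.0166 and 0.0288). *ID3*, an inhibitor of differentiation that sustains tumour initiation in the lung, stepped down without overlap from 141, 131 and 112 CPM in SC cells at 0.77 cP to 91.3, 86.0 and 88.1 CPM at 8 cP and 57.8, 58.8 and 66.7 CPM in shTRPV4 cells. Its log2 fold changes were -0.532 with viscosity (adjusted p = 0.000269) and -0.535 with the knockdown (0.00012). The keratin gene *KRT81* (195 to 148 CPM, -0.402, 0.00047) and the actin bundling gene *FSCN1* (46.9 to 37.4 CPM, -0.326, 0.000991) were also lower with viscosity. With the knockdown the EGF family ligand *EREG* fell from 39.1 to 27.2 CPM (-0.525, 2.42e-05) and *ID1* from 219 to 141 CPM (-0.637, 0.00147).

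The bone and brain lists each held calls in both directions. With viscosity most of their calls were lower, and their medians were near that of the lung list (-0.233). Over all genes tested, 19.3% were called with viscosity and 20.0% with the knockdown, and 9.69% and 11.0% were called lower. Of 6 of 7 bone metastasis genes tested, 1 was higher and 3 lower with viscosity (median -0.204), where the protease gene *ADAMTS1* (-0.537, adjusted p = 0.000407), the osteoclast-activating cytokine *IL11* (62.0 to 40.9 CPM, -0.602, 0.00093) and *CCN2* (-0.27, 0.00451) fell. With the knockdown the chemokine receptor *CXCR4* rose from 3.27 to 4.80 CPM (0.55, 0.000489) and *IL11* fell (-0.29, 0.0457), with a median of -0.0713. Of 7 brain metastasis genes, 1 was higher and 3 lower with viscosity (median -0.256), with falls of *HBEGF* (143 to 92.5 CPM, -0.628, 2.68e-07), *L1CAM* (-0.418, 0.000518, with 439 exon bases shared on the same strand) and *COL13A1* (-0.256, 0.00127). With the knockdown 2 were higher and 3 lower (median 0.0756), with falls of *COL13A1* (244 to 165 CPM, -0.566, 4.05e-07) and *SERPINI1* (-0.685, 0.00895) and a rise of *CTSS* (0.336, 0.00419).

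**Figure D5:**
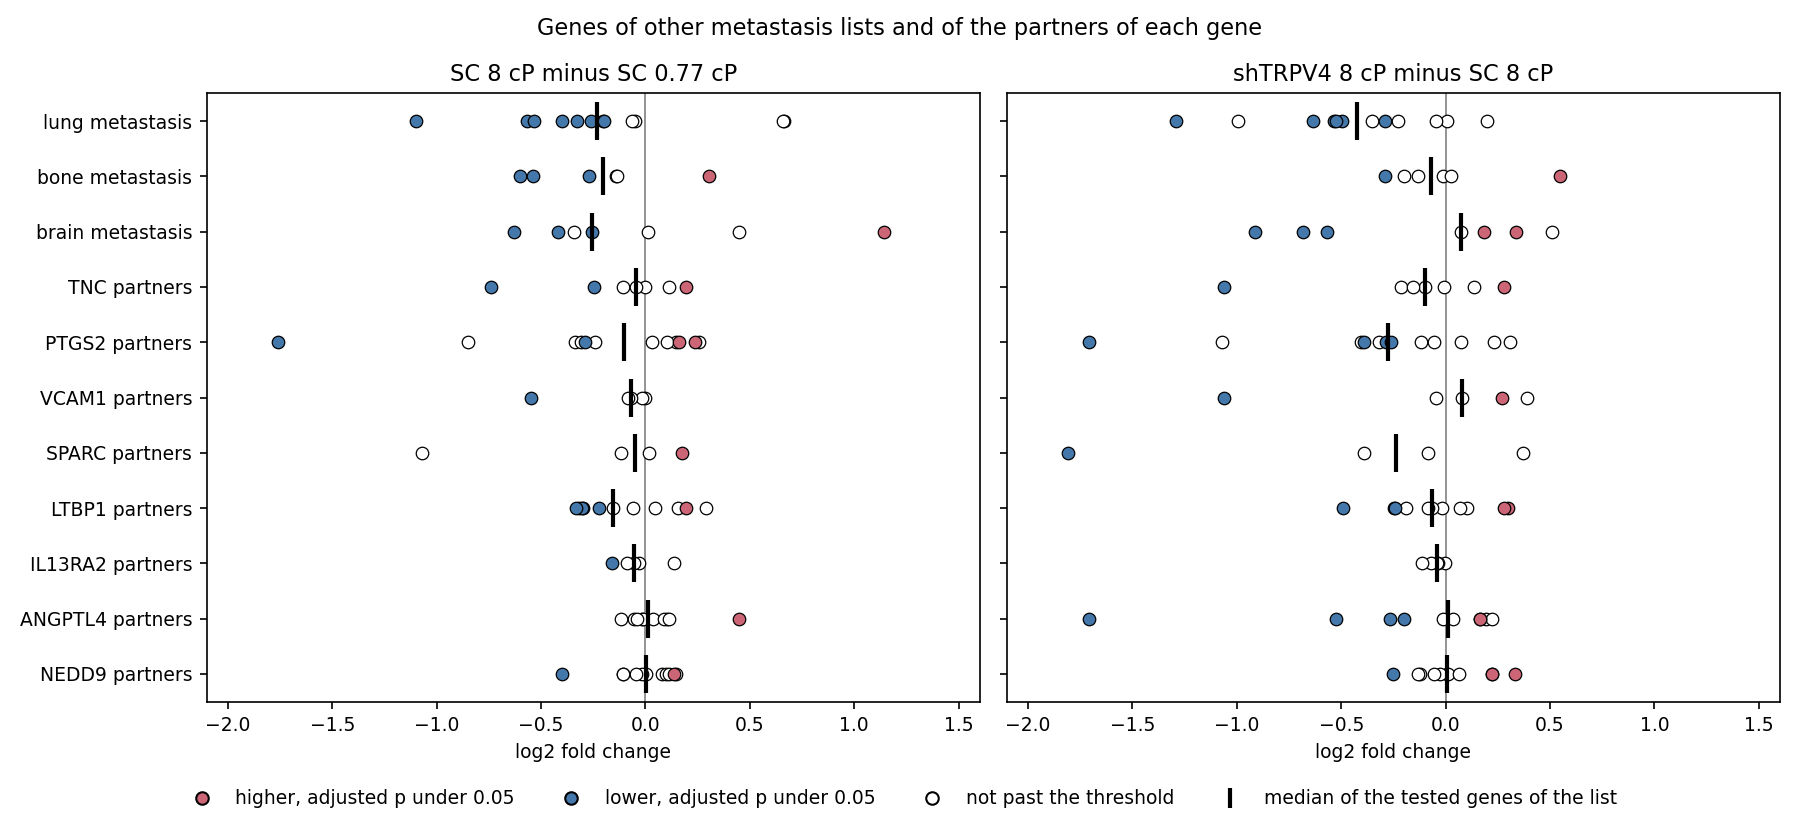
Log2 fold change (horizontal axis) of each tested gene of 3 metastasis lists and 8 partner lists (rows), for viscosity (left) and knockdown (right). Red and blue points are higher and lower with an adjusted p under 0.05, open points did not pass, and bars are list medians: the lung list has 7 blue points on the left and 6 on the right and no red one.

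Correlations were taken over the 9 samples, which fall into 3 groups, so a gene with a member's pattern over the groups scores high. Among 13107 genes whose mean reached 1 CPM, those whose log2 CPM followed a called member most closely are given as a description. They were *LRP6* and *GLG1* for *TNC* (Pearson correlations of 0.988 and 0.974), *THAP9* and *BET1L* for *PTGS2* (0.976 and 0.974), *CTNND1* and *TSPAN8* for *VCAM1* (0.981 and 0.980), *SHC3* and *WASL* for *LTBP1* (0.981 and 0.971), and *SCG2* and *CD151* for *NEDD9* (0.995 and 0.992). No gene was nearest to more than 1 member.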

How the data were processed

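RNA of 9 MDA-MB-231 samples was measured, 3 in each of 3 groups taken from the sample labels. The authors made stranded poly(A) libraries, mapped the paired reads to GRCh38.p13 with HISAT2 2.2.1, counted reads on exons per Ensembl gene with HTSeq 0.13.5 and deposited raw counts, without normalization, for 60664 genes. The strand setting of the counting is not given in the sources used here. Symbols were matched for 60463 genes from GENCODE on GRCh38, which also gave positions, exon lengths (18227 of 18264 tested genes) and shared exon bases, and promoter sequences are from RefSeq.

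In R 4.3.3 with edgeR 4.0.16, counts were scaled by TMM, filtered by filterByExpr (18264 genes) and fitted with 1 coefficient per group over all 9 samples, where the biological coefficient of variation common to all genes was 0.0633. The quasi-likelihood test was adjusted by Benjamini-Hochberg over all genes tested, with a threshold of 0.05. CPM are counts per 1000000 of the TMM-scaled library size, and log2 CPM used a prior count of 2. Totals of 64571681 to 103518036 counts set the floor of 3 counts. The method was tested on simulated data with known changes. Replicates of a group differed by 6.27 to 28.9 times the chi-square that sampling noise gives, so none was merged with another, which does not show that they were separate cultures.

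The genes named are all 8 members, *TRPV4*, up to 3 genes per list with the smallest adjusted p under 0.05 in each of the first 2 comparisons, and the 2 genes most correlated with each called member. The marker genes of the line and of other cell types are named in the check of identity. A few others (*CDH5*, *DCN*, *PTGES*, *PLAAT4*, *LY6E*, *MMP1*, *MMP2*, *IL13RA1*, *IL4R*, *ITGA4*, *ITGB7*, *BCAR1*, *PTK2*) were named after their values were seen. The members and lists were chosen with earlier results of these data known. The alternatives tried were DESeq2 1.42.0, upper quartile scaling, no filter, a minimum of 10 counts in each sample, a fit of the 6 samples compared alone, a replicate block, each sample left out in turn, and the longest transcript as the length.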

Additional observations from a re-analysis of the deposited data

How the results depend on the processing

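For the 7 members tested in 3 comparisons, 315 values were recomputed under 15 alternatives. Direction and side of the threshold were kept in 288 of them, 14 lost their call, 10 gained one and 3 changed sign, none of the 3 a called value. The changes of sign were *LTBP1* with viscosity without SC-8cP replicate 3 (-0.0138, range with a sample left out up to 0.0677) and *SPARC* with the knockdown without SC-8cP replicate 2 (-0.0113) or shTRPV4 replicate 2 (-0.2, range up to 0.394). Without a filter 5 members were called with viscosity in place of 3, *TNC* (adjusted p = 0.0258) and *SPARC* (0.019) being added, and *VCAM1* was called higher with the knockdown (0.000369). In that fit 3834 of 34549 genes were called with viscosity. *TNC*, *LTBP1* and *NEDD9* then all had an SE of 0.057, against 0.12, 0.063 and 0.085 with the filter. Its estimate of spread no longer differed between these genes, so its added calls and small adjusted p-values carry that limit. With a sample left out, 2 to 4 members were called with viscosity (3 with all samples), 2 to 5 with the knockdown (4) and 5 to 6 between shTRPV4 cells and SC cells at 0.77 cP (5). Over all genes the calls with a sample left out ranged from 1409 to 4349 with viscosity (3518 with all samples), from 2179 to 3836 with the knockdown (3649) and from 6318 to 7705 in the third comparison (7752). The low counts with viscosity came without SC-0.77cP replicate 1 (1409) or 2 (1927) or SC-8cP replicate 3 (1418), and those with the knockdown without SC-8cP replicate 1 (2361) or 2 (2179). The cause was not tested. Members with the knockdown came to 2 without SC-8cP replicate 3 and without shTRPV4 replicate 2. The labels do not say whether the replicate numbers pair the samples. Deviations of same-numbered samples correlated between -0.0546 and 0.0904 over 9 pairs, none over 0.1. Those of other samples of different groups correlated between -0.106 and 0.115 over 18 pairs, 2 of them over 0.1. These values show no strong shared shift, but cannot show whether samples were handled together. With the replicate number as a block, 3, 3 and 5 members and 3475, 3607 and 7731 genes were called in the 3 comparisons, *PTGS2* losing its call with the knockdown (-0.533, adjusted p = 0.0574). In SC cells at 8 cP, the longest transcript as the length kept the rank of 5 of the 8 members. In shTRPV4 cells only *TNC* and *NEDD9* changed rank. Depth limits *IL13RA2*, at or under the floor of 3 counts, most, then *SPARC* and *PTGS2*, which had at most 154 and 323 counts a sample.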
